A study of Mus musculus with 2 samples.

Results

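The genes described here encode the transcription factor complex built around TAL1 (also called SCL), LMO2 and LDB1, together with the E proteins and the ETO corepressors that join it. They are 10 genes, namely Tal1, Lyl1, Lmo2, Ldb1, Ssbp3, Tcf3, Tcf12, Tcf4, Cbfa2t3 and Cbfa2t2, out of 69691 entries in each gene table, of which 21461 were nuclear protein-coding genes. The rows were found by Ensembl identifier in the gene and transcript tables, and all 10 were present. Total RNA was sequenced from primary CFU-Ery cells, the erythroid progenitors that precede visible red cell precursors. There was 1 group of 2 libraries, biological replicates 1 and 2, from male adult C57BL/6J mice aged 5 to 6 weeks, with no treatment or altered allele named. The labels name a progenitor isolation from bone marrow and a library protocol for small pools of cells, and each library started from 1 ng of RNA with fragments of 150 to 400 nt. Both libraries carry the same donor record but separate biosamples, so the spread between them may be technical. With no other group there was no contrast to test, and since the smallest p an exact sign-flip test of 2 libraries allows is 0.5, each level is given per library and as mean ± SD.

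In blood cells TAL1 or its relative LYL1, class II basic helix-loop-helix proteins, pairs with an E protein and contacts DNA at E-boxes. LMO2 has no DNA contact of its own and joins this pair to GATA factors and to LDB1, whose self-association can bring enhancers and promoters together. SSBP proteins protect LDB1 from degradation, and ETO proteins bring repression to the complex in immature erythroid cells.

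Promoter windows from RefSeq on GRCm38.p6 each ran from 250 bases before to 50 after a start site. The search used 15 windows from 8 of the 10 genes. No window of Lmo2 or Tcf4 was included, which does not show that RefSeq lacks a start site for either gene. The windows were searched on both strands for the GATA motif GATAA, for the composite the complex is known to bind (CTG, then 7 to 9 bases, then GATA) and for the E-box CAGNTG. The composite was found in 3 of the 15 windows and in 7.18% of all 32851 RefSeq windows, GATAA in 4 against 25.4%, and CAGNTG in 7 against 51.4%. Shown are both Tal1 windows, of which the data place nearly all reads on transcripts of the first, and the Lyl1 and upstream Cbfa2t3 windows as a relative without and a corepressor with the composite. Capitals mark the 3 motifs on either strand, and the sequences read 5′ to 3′ along the gene's strand.
Tal1 first start, chr4:115056176-115056475, plus strand: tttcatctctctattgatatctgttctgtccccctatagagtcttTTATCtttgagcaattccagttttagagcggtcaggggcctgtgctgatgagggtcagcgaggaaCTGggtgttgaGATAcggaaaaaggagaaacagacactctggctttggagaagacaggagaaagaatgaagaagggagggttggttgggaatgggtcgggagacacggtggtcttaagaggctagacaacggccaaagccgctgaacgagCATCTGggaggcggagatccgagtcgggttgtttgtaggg
Tal1 second start, chr4:115057561-115057860, plus strand: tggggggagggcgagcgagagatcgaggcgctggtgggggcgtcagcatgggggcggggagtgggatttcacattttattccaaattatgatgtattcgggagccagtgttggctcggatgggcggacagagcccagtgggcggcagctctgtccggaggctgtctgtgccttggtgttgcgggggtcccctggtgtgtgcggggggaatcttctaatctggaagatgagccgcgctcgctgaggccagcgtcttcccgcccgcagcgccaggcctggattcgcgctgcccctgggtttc
Lyl1, chr8:84701207-84701506, plus strand: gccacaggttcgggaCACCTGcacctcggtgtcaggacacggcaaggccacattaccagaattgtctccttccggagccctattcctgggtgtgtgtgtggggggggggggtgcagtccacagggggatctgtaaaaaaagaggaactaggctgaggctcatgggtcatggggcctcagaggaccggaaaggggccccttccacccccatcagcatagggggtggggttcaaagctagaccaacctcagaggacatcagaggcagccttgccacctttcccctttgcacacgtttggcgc
Cbfa2t3 upstream start, chr8:122699060-122699359, minus strand: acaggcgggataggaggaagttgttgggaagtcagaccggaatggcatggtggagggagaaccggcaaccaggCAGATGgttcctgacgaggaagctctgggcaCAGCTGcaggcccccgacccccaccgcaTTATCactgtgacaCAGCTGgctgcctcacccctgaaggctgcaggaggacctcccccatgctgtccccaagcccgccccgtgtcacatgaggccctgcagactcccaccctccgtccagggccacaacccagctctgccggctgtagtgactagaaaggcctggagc
The first Tal1 window holds the composite 140 bases before the start with a spacer of 8 bases, and a GATAA on the opposite strand 205 bases before it. None of the 3 motifs lies in the second Tal1 window, and the Lyl1 window holds a CAGNTG but no GATAA and no composite. In the upstream Cbfa2t3 window the composite lies on the opposite strand 117 bases before the start with a spacer of 9 bases, and it overlaps both a GATAA and a CAGNTG. The remaining composite lies in an internal Ssbp3 window that is not shown. Transcripts beginning there, from 106923185 to 106923225, held 0 and 2.13 counts in replicates 1 and 2. A match describes letters only and is not evidence of binding.

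The labelled cell type was checked against erythroid markers. All 8 erythroid markers stood at 1 TPM (a level scaled by transcript length and by the library total) or more in both libraries, and their summed level was 2605 and 2992 TPM in replicates 1 and 2. Most of that sum was the globin gene Hbb-bs, at 2287 and 2623 TPM, and the next marker, Slc4a1, measured 124 and 149 TPM. Granulocyte and monocyte markers, described below, summed to 539 and 734 TPM in the same libraries. The total expected count, the estimated number of reads per gene, was 143491647 and 110634458, but nuclear protein-coding genes held only 3.29% and 3.70% of it. The 10 genes held 8947 and 8236 of those counts, or 0.190% and 0.201% of the nuclear protein-coding total. Because other RNA fills most of each library, 1 deposited TPM equals 43.1 and 37.0 TPM when nuclear protein-coding genes alone are scaled to the full total, a scale called rescaled below.

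Of the 10 genes, 6 (Lmo2, Tal1, Ssbp3, Tcf3, Lyl1 and Ldb1) reached 1 TPM in both libraries, where 12.6% of nuclear protein-coding genes did (2701 of 21461). The median over the 10 genes was 2.05 and 2.25 TPM, beside 0.010 and 0.020 TPM over nuclear protein-coding genes. On the rescaled values all 10 genes passed the same minimum, as did 44.6% of nuclear protein-coding genes, and all 10 had at least 10 counts in both libraries, as did 42.9%. Their summed level was 33.7 and 41.3 TPM, of which Lmo2 alone made up 44.8% and 43.8%.

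**Figure D1:**
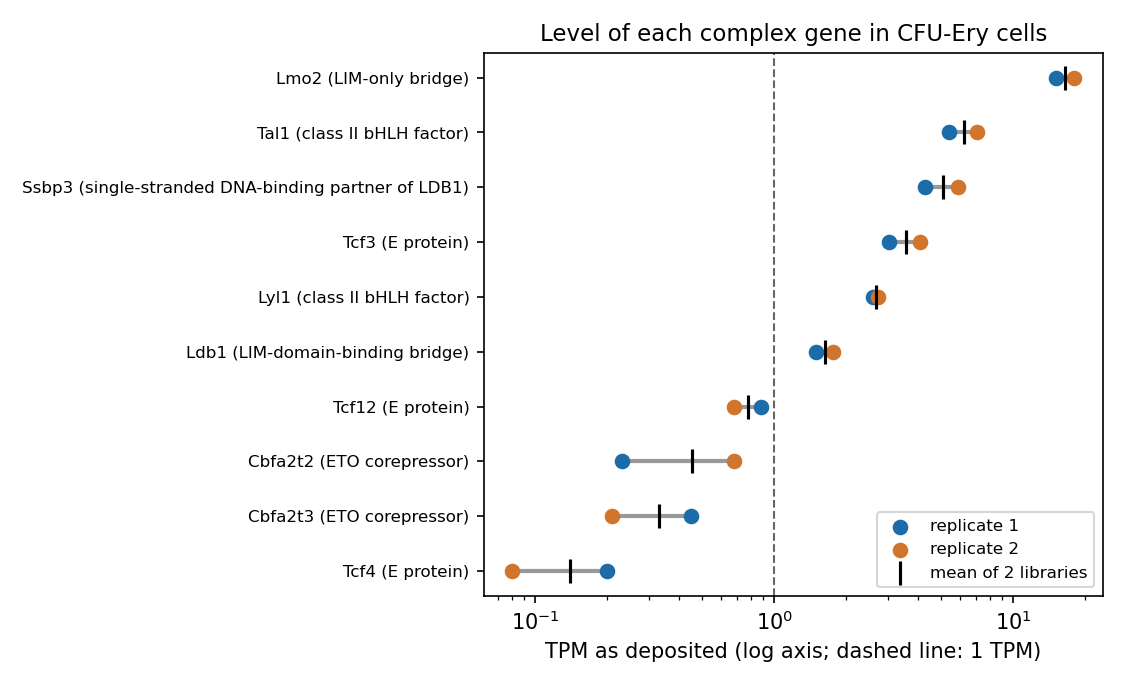
Deposited TPM (log axis) of each complex gene in replicate 1 (blue) and replicate 2 (orange) of CFU-Ery cells, with a tick at the mean of the 2 libraries and a dashed line at 1 TPM. Lmo2 lies highest at 15.1 and 18.1 TPM, the 6 genes from Lmo2 to Ldb1 lie right of the line in both libraries, and Tcf4 lies lowest at 0.20 and 0.080 TPM.

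Tal1 was the second most abundant of the genes and stood above its relative Lyl1 in both libraries. Tal1 (ENSMUSG00000028717.8, GRCm38 chromosome 4, 115056426 to 115071755, plus strand) measured 5.41 TPM in replicate 1 and 7.06 TPM in replicate 2, a mean of 6.24 ± 1.17 TPM (SD, n = 2). These values rest on 2918 counts (95% exact Poisson interval 2813 to 3026) and 2911 counts (2806 to 3019), and they place Tal1 at percentiles 97.4 and 97.8 of nuclear protein-coding genes. Lyl1 (ENSMUSG00000034041.4, chromosome 8, 84701457 to 84704715, plus strand), which can stand in for TAL1 in immature blood cells, measured 2.60 and 2.73 TPM, a mean of 2.67 ± 0.0919 TPM. The ranges of the pair did not overlap. Tal1 exceeded Lyl1 2.08-fold and 2.59-fold in level, a log2 ratio of 1.21 ± 0.22 (SD, n = 2), and it made up 69.8% ± 3.23 of their summed TPM. Tal2, a further relative and a factor of the developing midbrain, had 0 counts in both libraries.

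Nearly all Tal1 reads fell on full-length transcripts from its first start. The leading transcript ENSMUST00000030489.4, a model of 4213 nt with a coding sequence of 987 nt, held 99.9% and 97.5% of the gene's TPM. Transcripts of the first start group, those within 500 nt of one another, held 2916 and 2898 counts, and the next group held 0 and 8.99. Lyl1 has only 1 annotated transcript, ENSMUST00000037165.4, so its share of 100% in both libraries was fixed in advance. Its gene body of 3259 nt lies wholly within Nfix, a gene on the opposite strand with 395 and 420 counts. Whether strand was used in counting is not given in the sources used here, so reads of Lyl1 and Nfix in that region cannot be told apart.

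Among the bridging genes, Lmo2 stood far above Ldb1. Lmo2 (ENSMUSG00000032698.11, chromosome 2, 103957986 to 103981878, plus strand), the LIM-only adaptor, was the highest of the 10 genes at 15.1 and 18.1 TPM, a mean of 16.6 ± 2.12 TPM. It had 2766 counts (2664 to 2871) and 2584 counts (2485 to 2686), and stood at percentile 99.2 in both libraries. Ldb1 (ENSMUSG00000025223.10, chromosome 19, 46031570 to 46045214, minus strand), the LIM-binding protein through which complexes self-associate, measured 1.50 and 1.76 TPM, a mean of 1.63 ± 0.184 TPM. The Lmo2 range lay entirely above that of Ldb1 and above that of every other member. Lmo2 exceeded Ldb1 10.1-fold and 10.3-fold (log2 ratio 3.35 ± 0.02, SD, n = 2) and Tal1 2.79-fold and 2.56-fold (1.42 ± 0.09). The lead of Lmo2 over Tal1 is one of level per length, since by raw counts, which are not divided by length, the same ratio was -0.12.

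Lmo2 and Ldb1 each held most of the TPM of their families here. Lmo2 held 91.3% ± 1.23 of the summed TPM of the LIM-only family, with Lmo4, a widely expressed relative, next at 1.58 and 1.53 TPM. Lmo1 had 2 and 1 counts, and Lmo3 had 0 in both libraries. Ldb1 held 98.0% and 100% of the LDB pair, since Ldb2 had 9 and 0 counts. Within Lmo2, transcripts beginning between 103957986 and 103957995 held 99.5% and 98.8% of the counts. Their main form was ENSMUST00000170926.3, of 1529 nt, with 99.0% and 98.2% of the gene's TPM. The starts further inside the gene had few reads: the group at 103969528 held 13.8 and 14.2 counts, and the group from 103970129 to 103970244 held 0 and 16.7.

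Ldb1 reads were divided between several coding transcripts, and the division differed between the libraries. ENSMUST00000026252.9, the leading form, held 34.5% and 32.9% of the TPM, and ENSMUST00000152946.3 held 27.4% and 25.2%. These shares lay close together, whereas ENSMUST00000056931.9, which begins at an internal start, held 27.6% in replicate 1 and 5.66% in replicate 2. ENSMUST00000185355.2 moved the other way, from 0 to 14.8%; its coding sequence of 1233 nt is longer than the 1125 nt of the leading form. By start, the upstream group (46044914 to 46045214) held 58.1% and 77.0% of the counts and the internal group (46039481 to 46039621) 41.4% and 17.6%. Transcripts of one gene share most of their sequence, so these shares are estimates and their error is not known here. Ldb1 also overlaps Pprc1 on the opposite strand by 329 nt.

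Ssbp3, the partner that stabilises LDB1, ranked next to Tal1 by TPM, but much of that level came from short noncoding models. Ssbp3 (ENSMUSG00000061887.10, chromosome 4, 106910701 to 107049694, plus strand) measured 4.30 and 5.89 TPM, a mean of 5.10 ± 1.12 TPM, from 732 and 710 counts. By TPM it exceeded Ldb1 2.87-fold and 3.35-fold (log2 ratio 1.63 ± 0.16). Its leading entry, ENSMUST00000133827.3, is a processed transcript of 888 nt with 23.8% and 39.0% of the TPM. The full coding transcript ENSMUST00000030367.10, of 3195 nt, held the most counts, 361 and 353, yet 20.8% and 19.0% of the TPM. A further pair of processed transcripts, ENSMUST00000136487.1 and ENSMUST00000132506.3, held 11.6% and 16.1%, and 22.2% and 4.96%. With protein-coding transcripts alone Ssbp3 measured 0.91 TPM against 1.48 for Ldb1 in replicate 1, and 1.83 against 1.56 in replicate 2. On that sum the order was reversed in replicate 1 only, and the mean log2 ratio was -0.24. The relatives were lower: Ssbp2 had 1.40 and 0.88 TPM, Ssbp4 had 0.070 and 0.040, and Ssbp3 held 80.5% ± 8.46 of the family's TPM.

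The E proteins, the partners that TAL1 and LYL1 need to bind DNA, were led by Tcf3. Tcf3 (ENSMUSG00000020167.10, chromosome 10, 80409514 to 80433647, minus strand), which encodes E12 and E47, measured 3.04 and 4.10 TPM, a mean of 3.57 ± 0.750 TPM, from 725 and 664 counts. Tcf12 (ENSMUSG00000032228.12, chromosome 9, 71842688 to 72111871, minus strand), which encodes HEB, measured 0.88 and 0.68 TPM, a mean of 0.78 ± 0.141 TPM, from 461 and 315 counts. Tcf4 (ENSMUSG00000053477.11, chromosome 18, 69343356 to 69689079, plus strand), which encodes E2-2, a factor best known in plasmacytoid dendritic cells, measured 0.20 and 0.080 TPM, a mean of 0.14 ± 0.0849 TPM. The 3 ranges did not overlap, and Tcf3 held 79.1% ± 7.48 of the summed E protein TPM. Tcf3 exceeded Tcf12 by 2.19 ± 0.57 on the log2 scale, and Tcf12 exceeded Tcf4 by 2.61 ± 0.67 (SD, n = 2). Tcf4 rests on 146 counts (123 to 172) and 42 counts (30.3 to 56.8), the lowest depth of the 10 genes in replicate 2.

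The alternative forms of Tcf3 were told apart by translating the transcripts and looking for the peptide EAFRELG (arginine form) or EAFKELG (lysine form). Counts on arginine-form transcripts were 338 and 568, and on lysine-form transcripts 336 and 47.9. The arginine form held 43.9% of the TPM of these forms in replicate 1 and 74.1% in replicate 2, a mean of 59.0% ± 21.4 (SD, n = 2). Over coding transcripts alone its share was 51.7% and 100%, so which form led in replicate 1 depended on the transcripts summed. The libraries differed most at the full coding lysine-form transcript ENSMUST00000105342.3, with 308 counts in replicate 1 and 0 in replicate 2. The matching arginine-form transcript ENSMUST00000105345.5 had 269 and 471 counts. In replicate 2 the lysine form was counted only in ENSMUST00000129027.1, a processed transcript of 819 nt with 27.9 and 47.9 counts. The estimated balance of the forms thus differed between the libraries. As for Ldb1, such shares are estimates and their error is not known here. A coding fragment of 430 nt, ENSMUST00000156244.1, which carried 20.2 and 38.2 counts, held 17.1% and 31.0% of the gene's TPM.

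Tcf12 and Tcf4 also differed in their transcripts between the libraries. For Tcf12 the leading transcript was ENSMUST00000183404.3 in replicate 1 (48.7% and 28.8% of the TPM) and ENSMUST00000034755.8 in replicate 2 (8.31% and 31.5%). Their coding sequences measure 2118 and 2046 nt, and a retained intron form, ENSMUST00000184196.1, held 9.29% and 13.5%. Several entries on the same strand overlap Tcf12, the most counted of them Gm37663 with 41 and 65 counts. Tcf4 was led by ENSMUST00000078486.8 in both libraries, at 77.2% and 55.1%, from 143 and 30.1 counts. Its other transcripts appeared in 1 library each, ENSMUST00000145918.1 at 22.8% and 0 and ENSMUST00000114982.3 at 0 and 35.5%, and each rests on fewer than 10 counts.

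The ETO corepressors were low, and their order changed between the libraries. Cbfa2t3 (ENSMUSG00000006362.11, chromosome 8, 122625141 to 122699109, minus strand), which encodes ETO2, measured 0.45 and 0.21 TPM, a mean of 0.33 ± 0.170 TPM. Cbfa2t2 (ENSMUSG00000038533.11, chromosome 2, 154436481 to 154539356, plus strand), which encodes MTGR1, measured 0.23 and 0.68 TPM, a mean of 0.46 ± 0.318 TPM. Cbfa2t3 was the higher of the pair in replicate 1 and the lower in replicate 2. Their log2 ratio was 0.97 (95% counting interval 0.61 to 1.33) in replicate 1 and -1.70 (-2.08 to -1.31) in replicate 2, a mean of -0.36 ± 1.88 (SD, n = 2). Counting intervals cover counting error only. Runx1t1, the remaining ETO gene, measured 0.14 TPM in both libraries. Cbfa2t3 also overlaps Gm20388, a protein-coding gene on the opposite strand, by 73969 nt. Gm20388 had 49 and 56.3 counts, and as for Lyl1 and Nfix the reads of the pair cannot be told apart there.

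Small numbers of reads on short models moved with the ETO values. In replicate 1, 9.19 counts on a retained intron of 537 nt, ENSMUST00000148630.1, held 38.9% of the Cbfa2t3 TPM, and replicate 2 had none there. The full coding Cbfa2t3 transcript, ENSMUST00000127984.3, had 141 and 81.1 counts and held 61.1% and 97.1%. In replicate 2, 8.19 and 11.1 counts on the short Cbfa2t2 models ENSMUST00000155202.1 and ENSMUST00000109724.1 held 26.6% and 26.5% of that gene's TPM, and replicate 1 had none there. The Cbfa2t2 transcript with the most counts, ENSMUST00000137526.1, which begins inside the gene at 154510536, had 80.8 and 108 counts with 53.8% and 31.0%. ENSMUST00000099178.5, from the first start group, held 24.6% and 9.21%, and the retained intron ENSMUST00000135647.1 held 21.6% and 0. At a fixed length per gene Cbfa2t3 measured 0.29 and 0.21 and Cbfa2t2 0.13 and 0.24 TPM, and their order still changed between the libraries. The deposited model of ENSMUST00000127984.3 measures 4047 nt, against 7645 nt in the annotation used here for names.

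**Figure D2:**
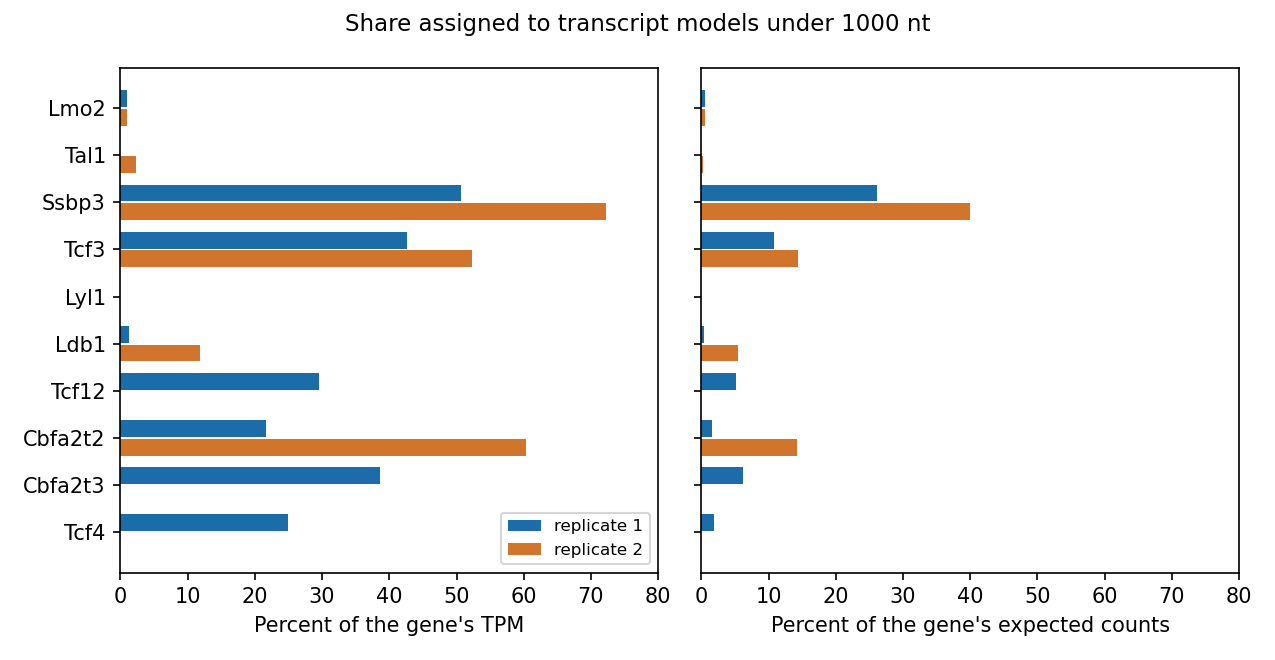
Percent of each gene's TPM (left) and of its expected counts (right) assigned to transcript models under 1000 nt, in replicate 1 (blue) and replicate 2 (orange); both axes start at 0. Short models held 50.7% and 72.2% of the Ssbp3 TPM but 26.1% and 40.0% of its counts, and at most 2.27% of the TPM of Lmo2, Tal1 and Lyl1.

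Transcript shares over all 10 genes separated those with a single dominant transcript from those without. Tal1, Lyl1 and Lmo2 had a leading transcript above 90% of TPM in both libraries, and 8 of the 10 genes had the same leading transcript in both. For Lyl1, with its only 1 annotated transcript, both outcomes were fixed in advance. The same shares were not computed over all genes. Models under 1000 nt held 61.5% ± 15.2 of the Ssbp3 TPM, 47.4% ± 6.89 of Tcf3 and 41.0% ± 27.3 of Cbfa2t2 (SD, n = 2). A read on a short model adds more TPM than a read on a long one, since TPM divides by length. With every gene set at the length of its longest coding transcript, Ssbp3 measured 2.03 ± 0.310, Tcf3 2.12 ± 0.238 and Lyl1 2.67 ± 0.0903 TPM, so Lyl1 moved ahead of both. Lmo2 and Tal1 kept the first places at 14.6 ± 1.86 and 6.16 ± 1.06 TPM.

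In order of mean TPM the genes ran Lmo2, Tal1, Ssbp3, Tcf3, Lyl1, Ldb1, Tcf12, Cbfa2t2, Cbfa2t3 and Tcf4. Neighbours whose ranges over the libraries overlapped were Tal1 and Ssbp3, Tcf12 and Cbfa2t2, and Cbfa2t2 and Cbfa2t3. Tal1 was nevertheless above Ssbp3 within each library, whereas the other 2 pairs did not keep 1 order in both libraries. All other neighbours had ranges that did not overlap. By role, the summed level was 23.3 ± 3.43 TPM for the bridging genes Lmo2, Ldb1 and Ssbp3, 8.90 ± 1.26 for Tal1 and Lyl1, 4.49 ± 0.523 for the E proteins and 0.79 ± 0.148 for the ETO genes (SD, n = 2).

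Between the libraries, 0 of the 10 genes differed over 2-fold in log2(TPM + 1) after centring on the median of the 9878 genes that averaged 20 or more expected counts, where 0.628% of those genes did. The centred log2 ratios of replicate 1 over replicate 2 ran from -0.40 for Cbfa2t2 to 0.31 for Cbfa2t3. Adding 1 shrinks the ratio of genes under 1 TPM. In log2(expected count + 1), 1 of the 10 genes passed 2-fold, beside 18.2% of all genes, and that gene was Tcf4 at 1.56. The 95% counting interval of the count ratio lay off the median shift for 7 of the 10 genes and for 58.0% of all genes, so the spread between these libraries exceeded counting error for most genes and the 10 genes lay near that background. Lyl1, Ldb1 and Tcf3 were the genes whose interval reached the median shift. In bulk RNA, fewer cells of a type and less RNA per cell cannot be told apart.

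**Figure D3:**
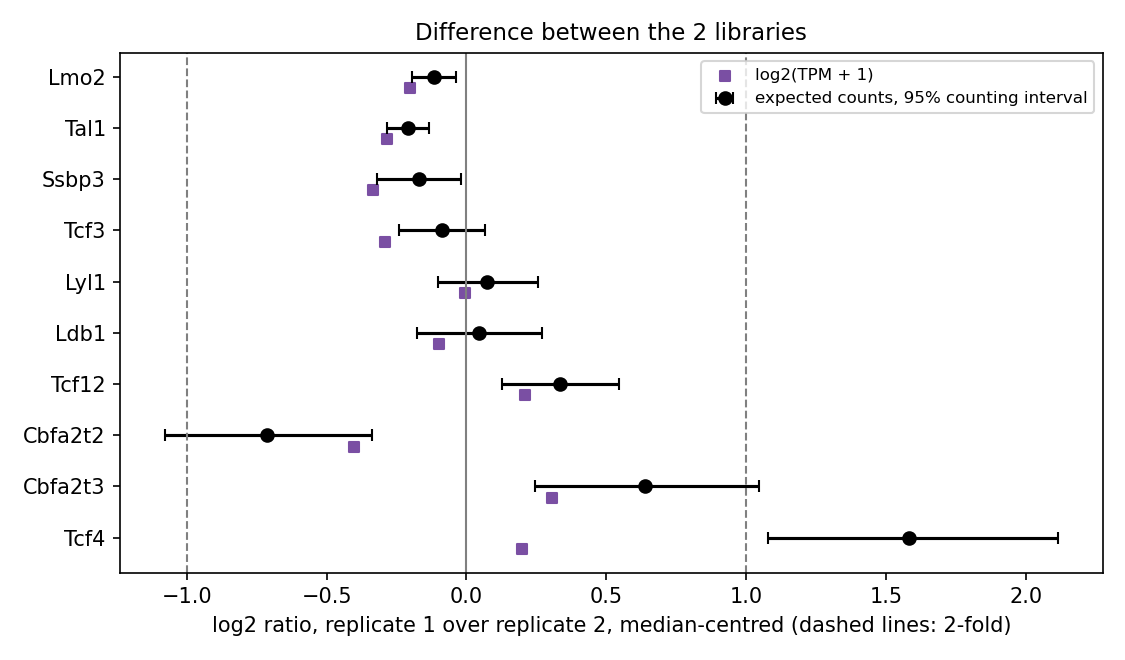
Log2 ratio of replicate 1 over replicate 2 for each gene, centred on the median of all 9878 genes compared, from log2(TPM + 1) (purple squares) and from expected counts with 95% counting intervals (black circles); dashed lines mark 2-fold. By counts Lmo2 lies at -0.12 and Tal1 at -0.21, and Tcf4 lies past 2-fold by counts but at 0.20 by log2(TPM + 1).

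Of 35 relatives, inhibitors and partners in the lists, 13 reached 1 TPM in both libraries, where 12.6% of nuclear protein-coding genes did. Among the 35, 2 (Tal2 and Lmo3) had 0 counts. The ID proteins, which bind E proteins and keep them off DNA, were below that minimum: 0 of 4 reached it in both libraries. Their summed level was 1.38 and 1.57 TPM, below the E protein sum of 4.12 and 4.86 TPM in the same libraries. Id2 led with 0.91 and 1.04 TPM, and Id4, lowest by its mean, had 0.090 and 0.050 TPM.

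Among the DNA-binding partners, 6 of 10 reached 1 TPM in both libraries, with a median of 2.40 ± 0.219 TPM over the list. Klf1, the erythroid Krüppel-like factor, measured 6.27 and 9.00 TPM, and Gata1, the GATA factor LMO2 joins to TAL1, measured 5.94 and 5.68 TPM. Their ranges overlapped that of Tal1 and lay below that of Lmo2. Zfpm1, the GATA1 cofactor FOG1, measured 4.19 and 7.03 TPM, and Gfi1b, an erythroid repressor, 3.11 and 3.41 TPM. Sp1 measured 1.92 and 3.26 and Runx1 2.57 and 1.85 TPM. Erg, an ETS factor of stem cells, was lowest at 0.13 and 0.14 TPM.

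The corepressor and chromatin partners numbered 4 of 9 at 1 TPM in both libraries, with a median of 1.08 ± 0.219 TPM. Ncor1, a nuclear corepressor that ETO proteins bind, led at 5.75 and 6.15 TPM. Hdac1 measured 2.97 and 2.77, Sin3a 1.71 and 3.37 and Hdac2 1.72 and 1.66 TPM, and Irf2bp2, an ETO2 partner, was lowest at 0.59 and 0.55 TPM. All of these stood above Cbfa2t3 itself in both libraries. In the list of LDB1 turnover and partner genes, 2 of 4 reached 1 TPM in both libraries. Med1, a Mediator subunit, measured 1.50 and 1.30 TPM, and Ehmt2, a histone methyltransferase, was lowest at 0.68 and 0.42 TPM.

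**Figure D4:**
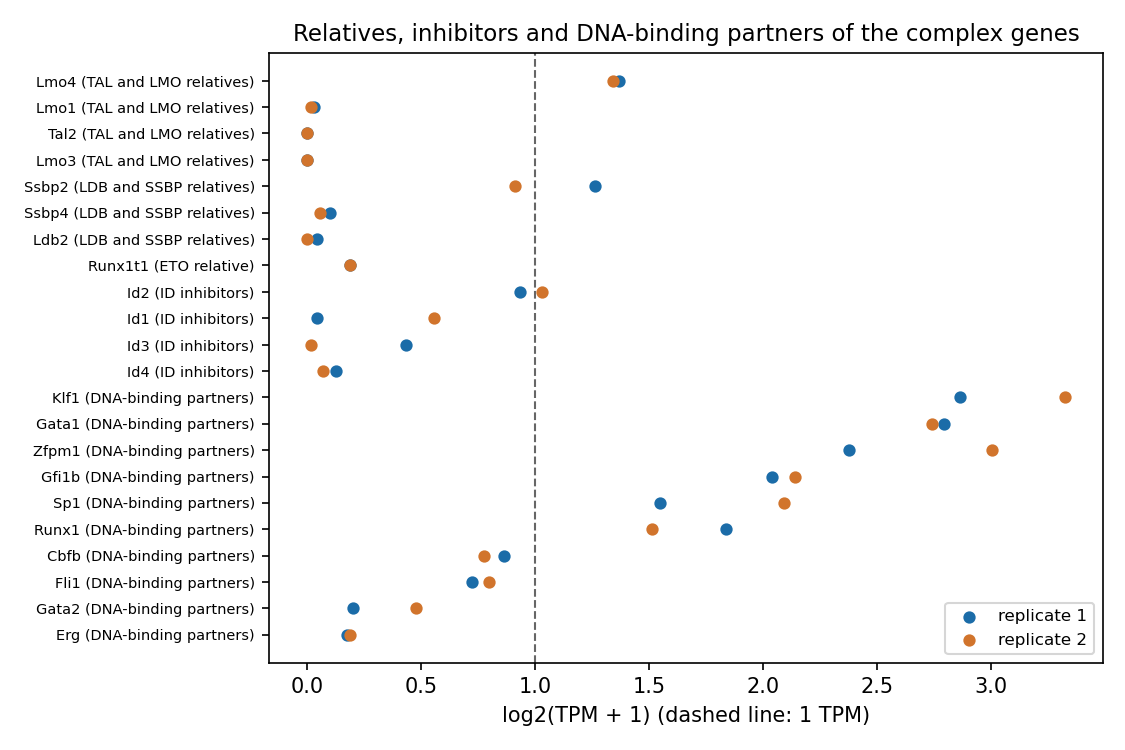
Log2(TPM + 1) of the relatives, ID inhibitors and DNA-binding partners of the complex in replicate 1 (blue) and replicate 2 (orange), grouped by list, with a dashed line at 1 TPM. Klf1, Gata1 and Zfpm1 lie furthest right, and the 4 ID genes lie at or left of the line except Id2 in replicate 2.

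Genes known to be bound by the complex in erythroid cells spanned levels from below most of the complex genes to far above Lmo2. Of 11 such genes, 10 reached 1 TPM in both libraries, with a median of 23.4 ± 0.226 TPM. The beta globin genes Hbb-bs (2287 and 2623 TPM) and Hbb-bt (1118 and 1417 TPM) were the highest. The red cell membrane gene Slc4a1 measured 124 and 149 TPM, and the haem synthesis gene Alas2 62.0 and 77.8 TPM. The membrane skeleton gene Epb42 measured 23.3 and 23.6 TPM. Myb, a progenitor factor, stood at 2.67 and 2.40 TPM, and Kit, the stem cell factor receptor, was lowest at 0.43 and 0.36 TPM. Both lay below Lmo2 in each library, as did Klf1, Gata1 and Runx1, which are also in this list. These genes are known targets from other work, and no binding was measured here.

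Markers of other cells that also use these factors were read beside them. Granulocyte and monocyte markers were present, with 8 of 8 at 1 TPM or more and a summed level of 539 and 734 TPM, highest S100a9 at 173 and 250 TPM. Macrophage markers reached 1 TPM in 5 of 6 (summed 11.04 and 14.3 TPM, highest C1qb at 3.71 and 4.64). B lymphoid markers did so in 3 of 8 (summed 17.0 and 18.7 TPM, highest Ighm at 9.75 and 11.99). T and NK markers did so in 1 of 6 (Nkg7 at 2.11 and 2.21 TPM), beside 12.6% of nuclear protein-coding genes. These lists are white cell types that remained measurable beside the erythroid genes. The stem and progenitor list had 0 of 8, with a summed level of 0.73 and 0.75 TPM, Gata2 highest by its mean and Procr at 0 counts, while the megakaryocyte list had 0 of 6 (summed 2.29 and 3.53 TPM, highest by its mean Gp9). The endothelial list also had 0 of 6 (summed 0.26 and 0.66 TPM, highest Pecam1), with Tek, Emcn and Kdr at 0 counts in both libraries. Plasmacytoid dendritic markers, beside which Tcf4 is read, had 0 of 6, with a summed level of 1.27 and 1.15 TPM, Spib highest and Siglech at 0 counts in both libraries. How much of the Lyl1, Lmo2, Tcf3 or Tcf4 level came from such cells was not tested.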

How the data were processed

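Gene and transcript tables of total RNA were used, 1 of each per library, for 2 libraries. Per the deposited file description, the authors quantified each library separately on mm10 with GENCODE M4. Aligner, quantifier and strand setting: not given in the sources used here. Per the file headers, the deposited expected counts are estimated reads and can be fractional. The authors scaled TPM over every row of a table, and FPKM by length and library size, per the file headers. Isoform share is the deposited percent of a gene's TPM that a transcript holds. Names, gene types and 1-based coordinates were joined from GENCODE M21 (GRCm38) by Ensembl identifier without version.

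Members and lists were chosen with earlier results of these data known. Named were all 10 members, their transcripts with a mean share of at least 10%, and of each list the genes at 1 TPM or more in both libraries, the lowest gene and those at 0 counts; of markers, the highest and those at 0. Lmo1, Ldb2, Ssbp2, Ssbp4, Id1, Id2, Id3, Gata2 and ENSMUST00000185355.2 were named after their values were seen. A few listed genes are left out of the text. Fixed length divides a gene's counts by the effective length of its longest coding transcript. Intervals (95%) were exact Poisson, or exact conditional binomial for the ratio of 2 counts, and cover counting error only. Depth was 4717790 and 4093202 nuclear protein-coding counts. Expected counts were rounded for edgeR TMM and DESeq2 size factors, used only as alternative scalings. Other alternatives were posterior mean TPM, FPKM, rescaling to nuclear protein-coding genes, coding transcripts alone, other minimums and pseudocounts, and each library alone. The software was R 4.3.3 with edgeR 4.0.16 and DESeq2 1.42.0, and Python 3.11.15 with pandas 2.3.3 and scipy 1.17.1.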

Additional observations from a re-analysis of the deposited data

How the results depend on the processing

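The fixed-length scale was chosen after seeing the data. The median level of 2.15 TPM became 85.8 on the rescaled values, 2.00 in FPKM and 1.68 at fixed length. Of the 10 genes, 6 reached the minimum, and 10 did on the rescaled values or with at least 10 counts, minimums that 44.6% and 42.9% of nuclear protein-coding genes passed. As log2 ratios, raw counts gave 2.49 for Tal1 to Lyl1, 2.98 for Lmo2 to Ldb1, -0.12 (reversed) for Lmo2 to Tal1, 0.86 for Tcf3 to Tcf12 and 1.09 for Ssbp3 to Ldb1, since they are not divided by length. Log2(TPM + 1), which shrinks low values, gave 0.97 for Tal1 to Lyl1, 2.74 for Lmo2 to Ldb1, 1.29 for Lmo2 to Tal1, 1.35 for Tcf3 to Tcf12, 0.64 for Tcf12 to Tcf4 and 1.20 for Ssbp3 to Ldb1. Fixed length gave 3.44 for Lmo2 to Ldb1, 1.25 for Lmo2 to Tal1, 0.43 (reversed) for Cbfa2t3 to Cbfa2t2 and 0.59 for Ssbp3 to Ldb1. Coding transcripts alone gave 3.44 for Lmo2 to Ldb1 and -0.24 for Ssbp3 to Ldb1 (reversed in replicate 1 only); posterior mean TPM gave 3.31 for Lmo2 to Ldb1 and 1.70 for Tcf12 to Tcf4. Leaving out 1 library gave -1.70 to 0.97 for Cbfa2t3 to Cbfa2t2, which changes its direction. Genes apart between the libraries numbered 0 of the 10, beside 0.628% of all genes compared. Under log2(expected count + 1) the number was 1 (Tcf4), beside 18.2% of all genes. It was also 1 under TMM and DESeq2 scaling of counts (Tcf4) and under log2(TPM + 0.1) (Cbfa2t2). For these last scalings the share over all genes was not computed, so the number has no background to be read against. Where no construction is named, the cause was not tested. No paired analysis was possible because there is only 1 group. Depth limits Tcf4, Cbfa2t2 and Cbfa2t3.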

Other observations

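The ID inhibitors Id1 and Id3, which both hold E proteins off DNA, differed between the libraries in opposite directions. Id1 had 3 and 39 counts in replicates 1 and 2, and Id3 had 53 and 1. Gata2, a GATA factor of earlier progenitors, had 58 and 121 counts. These genes were chosen after their values were seen, and the cause was not tested.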
